A study of Mus musculus with 6 samples.

Results

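Glycosyltransferases are the Golgi enzymes that build the sugar chains of glycoproteins and glycolipids, each adding 1 kind of sugar in 1 kind of linkage. The set described here holds the enzymes that start mucin-type O-glycans, branch N-glycans and O-glycans, extend the branches with galactose, N-acetylglucosamine (GlcNAc) or N-acetylgalactosamine (GalNAc), and cap them with sialic acid or fucose. Its members were the genes whose platform symbol begins with B3gal, B3gn, B4gal, St3gal, St6gal, St8sia, Galnt, Fut, Mgat or Gcnt, the last 4 followed by a digit, and each was represented by its brightest probe set. They numbered 85 of 18193 genes with a single symbol on the array and had 180 probe sets. After a filter that left out probe sets whose mean log2 signal over the 6 arrays lay below the 40th percentile, 60 members of 11625 genes were tested. Of the 85 members, 1 (Fut4-ps1) is a pseudogene.

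The samples were megakaryocyte progenitors (MkP), the precursors of megakaryocytes and platelets, from wild-type C57BL/6 mice. RNA from 3 bone marrow samples of adults aged 12 to 18 weeks and 3 fetal liver samples at E13.5 was hybridised to 1 Affymetrix array per sample. Both tissues were sorted for cells without lineage markers or Sca-1 and with c-kit, CD150 and CD41 on the surface. No animal number or pooling is given, so p-values measure only the spread between these samples. The labels name no treatment or altered allele, and donor age and organ differ together between the groups.

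In megakaryocytes and platelets, sialic acid covers galactose at the tips of glycoprotein chains, and platelets that lose it are taken up in the liver through galactose-binding receptors. In other blood cells the same enzyme families build selectin ligands, the ligands of sialic acid-binding lectins (Siglecs) and the gangliosides of the plasma membrane. Branching enzymes set how many arms an N-glycan carries and thereby how many sites are open to extension and capping.

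MkP genes were expressed in both tissues. Of 8 measured markers, among them the sort genes Itga2b (CD41), Kit and Slamf1 (CD150) beside Pf4, Gp9, Gp1bb, Itgb3 and Gata1, all were above background on all 6 arrays and 0 were past the threshold (limma; 3 at an unadjusted p under 0.05). A signal was taken as above background when it exceeded the highest of the 27 bacterial control probe sets of its array, which lay between 22.2 and 35.1. Marker genes of some other cells differed between the tissues. All 12 granulocyte markers fell in fetal liver, where their summed signal was 4797 to 6919 against 46015 to 71743 in marrow, and Ltf, Fcnb and Chil3 were not above background on any fetal liver array. Of 8 erythroid markers 4 rose, with summed signals of 9686 to 16416 in fetal liver and 2191 to 7209 in marrow, where Hbb-y and Hbb-bh1 were not above background. Mast cell and basophil markers summed to 139.7 to 401.1 in fetal liver and 1629 to 2991 in marrow, and macrophage markers to 341.8 to 470.4 and 1981 to 3842. Lymphoid markers (0 of 3 tested past the threshold, 1 at an unadjusted p under 0.05) summed to 411.9 to 622.1 and 745.8 to 1118, and hepatocyte markers (1 of 5 past, Apoa1) to 632.1 to 3649 and 237.9 to 634.5, which overlap. The median signal of an array was 62.8 to 65.5 in fetal liver and 74.1 to 80.2 in marrow, and the 5' to 3' ratio of Actb, a measure of RNA integrity, was 0.892 to 1.02 and 1.06 to 1.13. The same ratio of Gapdh was 0.099, 0.177 and 0.303 in marrow replicates 1, 2 and 3 and 0.109, 0.449 and 0.432 in fetal liver, lowest on replicate 1 of each tissue. The part of these differences in the results on glycosyltransferases was not tested, and in sorted bulk RNA fewer cells of a type and less RNA per cell cannot be told apart.

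The 2 members that rose in fetal liver were sialyltransferases of the ST3 group, and members of several families fell. The other ST3 genes did not pass: the changes of St3gal1, St3gal2 and St3gal4 were negative and that of St3gal3 was positive. St3gal6 and St3gal5 rose, and Galnt6, Mgat5, Gcnt2, St8sia6, B3gnt5, B4galnt1 and Mgat2 fell, where rose and fell mean a limma p of under 0.05 after Benjamini-Hochberg adjustment over all 11625 genes. The 2 that rose are 3.33% of the members tested, against 3.01% of all genes tested that were higher in fetal liver. The 7 that fell are 11.7%, against 4.76% of all genes that were higher in marrow. For both directions together the shares were 15.0% and 7.77%. The shares over all genes are also the background for the families and lists below. Without overlap of the tissues' arrays, 7 members were higher in fetal liver (11.7%, background 13.8%) and 11 in marrow (18.3%, background 14.2%; 28.0% of all genes in either direction). All 12 granulocyte markers tested also fell, as did 3 of 6 macrophage and 3 of 5 mast cell and basophil markers. Of the erythroid markers 4 of 8 also rose, and of the hepatocyte markers 1 of 5. A shared direction follows from these calls alone, and a link between members and markers was not tested. Of the 60 members 35 (58.3%) had a negative change, against 49.5% of all genes. The median change of the 60 was -0.28 (log2, fetal liver minus marrow) against 0.01 over all genes. Median centring of the arrays moved the median of all genes to 0.26 and that of the members to -0.03, and gave a marrow share of 32.8% of all calls against 61.2% without it. The count of risen members was 0 with the mean of probe sets, 1 without the variance trend and 1 without fetal liver replicate 2. That of fallen members was 4 without fetal liver replicate 2 and 4 without fetal liver replicate 3.

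**Figure D1:**
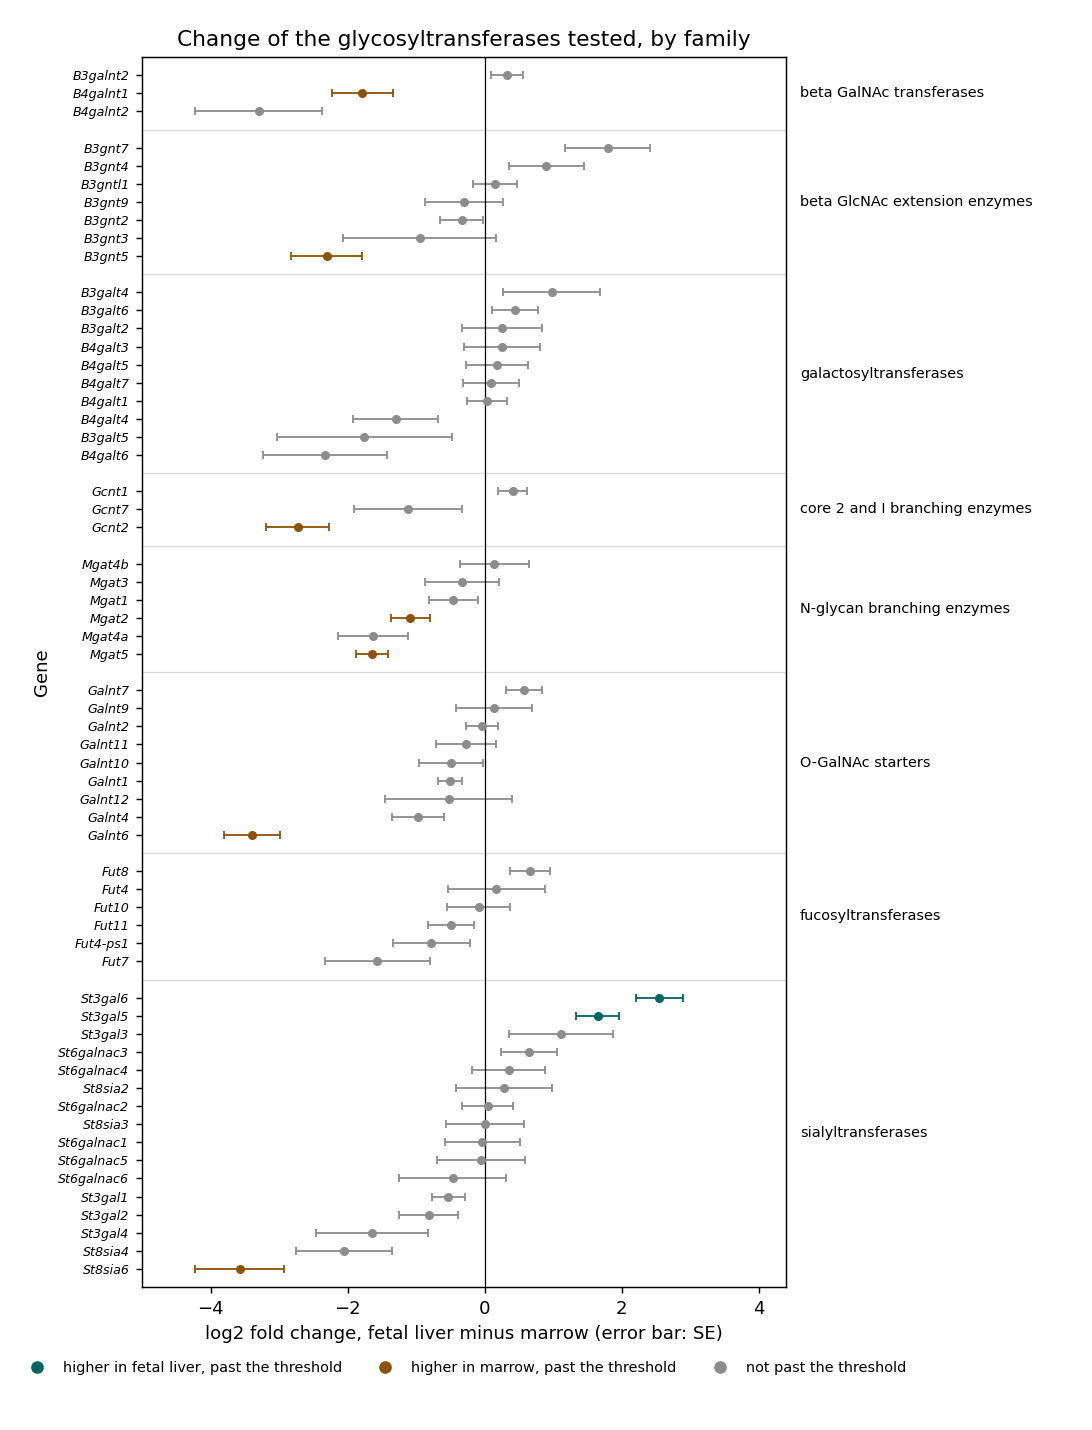
Log2 fold change of each of the 60 members tested (points, with the SE of the fit as bars), in 8 families, positive where the fetal liver mean was higher. St3gal6 and St3gal5 are the coloured points on the right, and the 7 genes past the threshold on the left belong to 6 of the 8 families.

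Promoter windows of 4 members are shown because they belong to both genes that rose and to the 2 with the smallest p among those that fell, Galnt6 and Mgat5. Each runs from 250 bases before to 50 bases after a RefSeq start site in GRCm38.p6, 5′ to 3′ on the gene's strand. Capitals mark matches, on either strand, to 4 short motifs known from megakaryocyte and housekeeping promoters: the GATA motif with the letters AGATAA or else TGATAA, the ETS motif with CGGAAG, the RUNX motif with TGTGGT and the SP motif with GGGCGG. St3gal6 has 2 such windows, at chr16:58524204-58524503 and chr16:58523377-58523676, both on the minus strand, and the others lie at chr6:72097358-72097657 (St3gal5, plus strand), chr15:100729327-100729626 (Galnt6, minus strand, the upstream of 2 windows) and chr1:127204736-127205035 (Mgat5, plus strand).
St3gal6, upstream start: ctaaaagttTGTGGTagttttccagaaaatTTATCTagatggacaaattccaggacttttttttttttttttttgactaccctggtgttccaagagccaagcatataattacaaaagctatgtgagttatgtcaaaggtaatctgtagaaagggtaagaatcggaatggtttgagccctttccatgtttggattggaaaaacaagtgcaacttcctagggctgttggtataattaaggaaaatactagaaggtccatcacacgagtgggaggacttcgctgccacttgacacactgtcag
St3gal6, downstream start: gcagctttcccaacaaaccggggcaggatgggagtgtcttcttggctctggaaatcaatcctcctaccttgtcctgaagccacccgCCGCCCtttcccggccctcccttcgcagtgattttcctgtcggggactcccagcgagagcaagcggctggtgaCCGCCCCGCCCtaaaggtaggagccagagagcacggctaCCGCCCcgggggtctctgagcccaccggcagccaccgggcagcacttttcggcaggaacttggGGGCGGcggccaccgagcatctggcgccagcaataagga
St3gal5: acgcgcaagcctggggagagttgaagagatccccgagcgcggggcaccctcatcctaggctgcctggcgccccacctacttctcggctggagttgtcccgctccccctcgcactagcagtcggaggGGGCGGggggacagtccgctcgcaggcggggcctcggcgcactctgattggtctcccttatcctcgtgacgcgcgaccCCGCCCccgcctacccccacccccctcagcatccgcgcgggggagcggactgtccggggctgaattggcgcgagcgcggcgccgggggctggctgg
Galnt6: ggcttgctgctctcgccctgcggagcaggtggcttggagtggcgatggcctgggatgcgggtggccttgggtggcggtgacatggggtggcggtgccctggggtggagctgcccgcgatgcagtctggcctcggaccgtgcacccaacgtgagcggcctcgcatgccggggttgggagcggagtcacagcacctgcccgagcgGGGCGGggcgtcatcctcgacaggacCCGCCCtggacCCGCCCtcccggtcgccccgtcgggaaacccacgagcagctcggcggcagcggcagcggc
Mgat5: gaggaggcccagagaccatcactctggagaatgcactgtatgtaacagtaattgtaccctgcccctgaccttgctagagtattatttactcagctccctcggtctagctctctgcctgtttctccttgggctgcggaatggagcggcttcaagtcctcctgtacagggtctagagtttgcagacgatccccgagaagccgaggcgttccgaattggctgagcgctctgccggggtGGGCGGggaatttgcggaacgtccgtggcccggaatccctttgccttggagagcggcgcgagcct
The upstream window of St3gal6 holds 38.7% G and C and had 1 GATA match and 1 RUNX match, whose first bases lie 220 and 241 bases before the start. Its downstream window holds 64.7% G and C and had 5 SP matches, of which 1 pair overlaps, and no GATA, ETS or RUNX match. The windows of St3gal5, Galnt6 and Mgat5 had 2, 3 and 1 SP matches and none of the other motifs. Over all 32851 windows of the table, 18.6% hold the GATA motif, 16.9% the ETS motif, 16.8% the RUNX motif and 35.7% the SP motif. A match is a description of the letters only, and which start site the probe sets measured was not tested. Of the 9 members past the threshold 8 had a window in the table, and of all 85 members 61 had one.

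Among sialyltransferases, which cap chains with sialic acid, 2 rose, 1 fell and 13 did not pass, of 16 tested. The family's median was -0.01, which turned to 0.24 under median centring and 0.18 under quantile normalization and ranged from -0.25 to 0.15 with an array left out. St3gal6 (probe set 1449078_at) adds α2,3-linked sialic acid to galactose of lactosamine chains and takes part in making selectin ligands. Its signals were 191, 117 and 169 in marrow replicates 1, 2 and 3 and 850, 943 and 980 in the fetal liver replicates. All fetal liver arrays lay far above all marrow arrays, and the means were 159 ± 38.0 (SD, n = 3) and 925 ± 67.2. The change was 2.55 ± 0.34 (log2, SE; limma adjusted p = 0.00177). Another probe set, 1449079_s_at, differed by 3.98, with 1 of 3 marrow arrays above background, and 2 more by 1.01 and 0.20. The call of St3gal6 was lost with its 4 kept probe sets averaged (change 1.93, adjusted p = 0.0880).

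St3gal5 (1449198_a_at) encodes GM3 synthase, which sialylates lactosylceramide and so makes the first ganglioside. It had signals of 589, 731 and 1090 in marrow and 1769, 3346 and 2458 in fetal liver. The groups did not overlap, and the spread within each was wider than for St3gal6. The change was 1.65 ± 0.31 (adjusted p = 0.0102), and it was not past the threshold without fetal liver replicate 2 (adjusted p = 0.0592), with the mean of probe sets (adjusted p = 0.0645) or without the variance trend (adjusted p = 0.0524). The other kept probe set, a dimmer one, had signals of 129, 265 and 4.49 in marrow against 199, 336 and 250 in fetal liver. Its groups overlapped, and it differed by 2.02 (adjusted p = 0.329 in a fit of all probe sets).

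St8sia6 (1438566_at) makes α2,8-linked disialic acid, a ligand of the mouse inhibitory lectin Siglec-E. Its signals were 124, 361 and 342 in marrow and 10.7, 39.1 and 13.7 in fetal liver, where 1 of 3 arrays was above background. Marrow replicate 1 was the lowest of its group and still above all fetal liver arrays. The gene fell by 3.57 ± 0.65 (log2, SE; adjusted p = 0.00866), and another probe set (1456440_s_at), not above background on any fetal liver array, was at least 4.71-fold higher in marrow (adjusted p = 0.0105 in a fit of all probe sets). The Siglece transcript itself had signals of 33.8, 126 and 126 in marrow and 25.2, 25.2 and 4.19 in fetal liver, where no array was above background, and was at least 2.59-fold higher in marrow (adjusted p = 0.108).

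The other sialyltransferases known from platelets and glycoproteins were not past the threshold. St3gal1, which caps core 1 O-glycans, had signals of 4464, 6064 and 3613 in marrow and 2539, 3470 and 3699 in fetal liver, with overlapping groups (-0.53 ± 0.24, adjusted p = 0.216; -0.33 without marrow replicate 2 and -1.34 with probe sets averaged). Its second probe set, a dimmer one, had signals of 167, 810 and 256 against 58.6, 65.6 and 93.8. St3gal4, which sialylates platelet glycoproteins and von Willebrand factor, had signals of 372, 28.4 and 115 in marrow against 30.8, 25.6 and 44.6 in fetal liver (-1.64 ± 0.82, adjusted p = 0.269; -0.76 without marrow replicate 1 and -2.56 without replicate 2). Marrow replicate 1 was set apart there and marrow replicate 2 lay among the fetal liver values. Of the 3 fetal liver arrays 1 was above background for St3gal4. St6gal1, the α2,6-sialyltransferase of N-glycans, fell below the filter, with 0 marrow arrays and 1 fetal liver array above background (signals 6.13 to 16.7 and 9.55 to 36.2). St8sia4, a polysialic acid synthase named here after its values were seen, had signals of 1803, 271 and 2665 in marrow against 244, 353 and 208 in fetal liver (-2.05 ± 0.70, adjusted p = 0.108). Without marrow replicate 2 the change of this probe set was -3.05 (adjusted p = 0.00182). The other kept probe set had signals of 493, 227 and 886 in marrow against 84.0, 173 and 59.0 in fetal liver. Its groups did not overlap, and it differed by -2.25 (adjusted p = 0.0495 in a fit of all probe sets). The 6 St6galnac genes, which add sialic acid to GalNAc, overlapped between the tissues and differed by -0.47 to 0.65 (lowest adjusted p = 0.386). St3gal3, a sialyltransferase of galactose ends, had signals of 352, 58.9 and 603 in marrow against 254, 718 and 728 in fetal liver (1.12, adjusted p = 0.435).

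**Figure D2:**
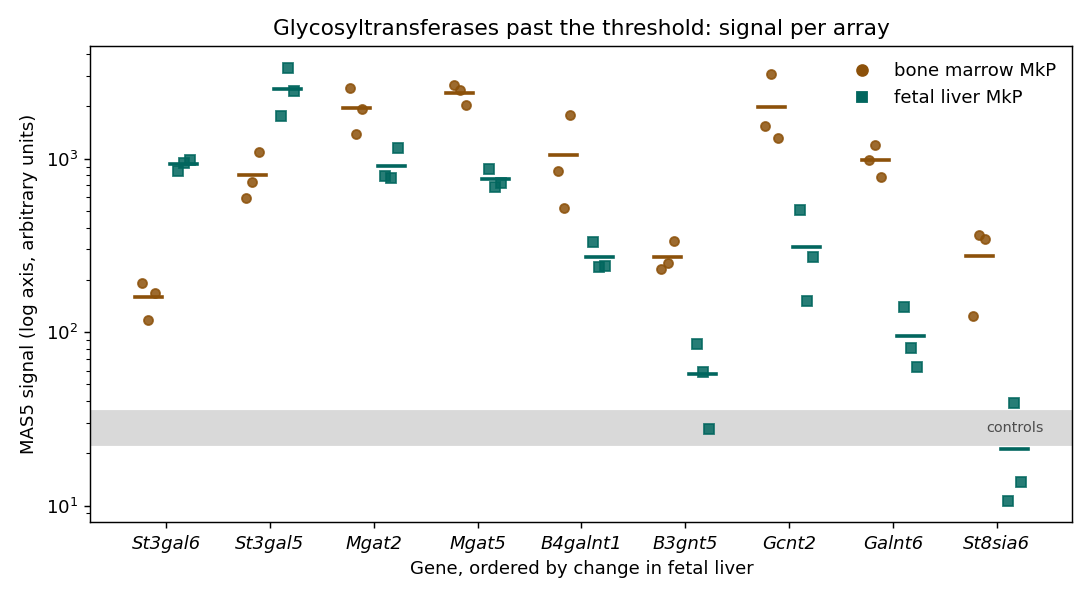
MAS5 signal on each array (points, log axis) with the mean of the 3 arrays of a tissue (bars) for the 9 members past the threshold, and the range of the highest bacterial control signal over the arrays (grey band). In every gene shown the 3 arrays of one tissue lie above the 3 of the other, and 2 of the 3 St8sia6 signals in fetal liver lie below the band.

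Several members act in glycolipid synthesis, around the lactosylceramide that GM3 synthase uses, and those described here were grouped after their values were seen. B4galnt1 (1418655_at) adds GalNAc to GM3 and GD3 to form GM2 and GD2. Its signals were 843, 521 and 1793 in marrow and 329, 238 and 241 in fetal liver. The groups did not overlap, and marrow replicate 3 was well above the other 2. The gene fell by 1.78 ± 0.44 (log2, SE; adjusted p = 0.0363), but the call was lost without marrow replicates 1 and 3 and each fetal liver replicate (adjusted p = 0.0652 to 0.122), with quantile normalization (0.0617), without the variance trend (0.0888) and with its probe sets averaged (0.0602).

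B3gnt5 (1420994_at), the lactotriaosylceramide synthase that opens the lacto-series, had signals of 231, 250 and 334 in marrow and 85.1, 58.6 and 27.5 in fetal liver. Fetal liver replicate 3 was not above background there, and the groups were separate. It fell by 2.31 ± 0.52 (adjusted p = 0.0250), a call lost without marrow replicates 2 and 3 (adjusted p = 0.0518 and 0.0707) and without fetal liver replicates 2 and 3 (0.0725 and 0.0999).

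B4galt6, which makes lactosylceramide, had signals of 710, 104 and 1421 in marrow against 34.4, 197 and 112 in fetal liver (-2.33 ± 0.90, adjusted p = 0.152). Marrow replicate 2 lay within the fetal liver range, and without it the change was -3.41 (adjusted p = 0.0216). Without marrow replicate 3 it was -1.54. In a fit of all probe sets its other 3 kept probe sets disagreed in size: 1 differed by -3.67 (adjusted p = 0.0373), 1 by -0.75 (adjusted p = 0.702), and 1 was not above background on any fetal liver array and at least 4.66-fold higher in marrow (adjusted p = 0.0105). B4galt5, the other lactosylceramide synthase, had 141, 347 and 289 against 347, 202 and 293 (0.18, adjusted p = 0.868). B3galt4, which makes GM1 from GM2, differed by 0.98 ± 0.71 (adjusted p = 0.463; 0.30 without marrow replicate 1). St8sia1, the GD3 synthase, was not above background on any array. Whether St3gal5 differed in its change from these genes was not tested.

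N-glycan branching enzymes, which set the number of arms, had a median of -0.77, and 2 of 6 tested fell, against 4.76% of all genes. Without fetal liver replicate 3 the median was -0.36, and 1 of 7 fell. Mgat5 (1428643_at) adds the β1,6 arm of tetra-antennary glycans. Its signals were 2642, 2476 and 2026 in marrow and 866, 685 and 727 in fetal liver, with a narrow spread in both groups. The gene fell by 1.64 ± 0.23 (log2, SE; adjusted p = 0.00237). Its other 2 kept probe sets differed by -1.28 and -2.02, and the call held in all 16 alternatives run (adjusted p = 0.00149 to 0.0152).

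Mgat2 (1452037_at) adds the second GlcNAc arm and so commits a chain to the complex type. It had signals of 2552, 1383 and 1919 in marrow and 798, 775 and 1147 in fetal liver. The groups did not overlap, but the lowest marrow and the highest fetal liver array lay close together. It fell by 1.08 ± 0.29 (adjusted p = 0.0469). The call was lost in 10 of 16 alternatives, among them those without marrow replicates 1 and 3 and without each fetal liver replicate (adjusted p = 0.0730 to 0.169), and the second probe set differed by -0.23 (adjusted p = 0.787). Mgat4a, which adds the β1,4 arm and is named here after its values were seen, had signals of 1590, 1231 and 549 in marrow against 176, 598 and 338 in fetal liver (-1.63 ± 0.50, adjusted p = 0.0794; -2.08 and 0.0415 without marrow replicate 3). The other kept probe set of Mgat4a differed by -0.50 (adjusted p = 0.552 in a fit of all probe sets). Mgat1, which adds the first GlcNAc arm, differed by -0.46 ± 0.36 (adjusted p = 0.503; -0.69 to -0.24 with an array left out).

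O-glycan starters of the Galnt family attach the first GalNAc to serine or threonine. Of 9 tested 1 fell, 0 rose and 8 did not pass, and the median was -0.49 (-0.12 without fetal liver replicate 2, -0.20 without marrow replicate 3 and -0.24 under median centring). Galnt6 (1434399_at) had signals of 982, 1192 and 779 in marrow and 139, 81.1 and 63.3 in fetal liver. No fetal liver array came near the marrow values, though all were above background. Galnt6 fell by 3.40 ± 0.41 (log2, SE; adjusted p = 8.96e-04), the smallest p among the members, and the call held in all 16 alternatives (adjusted p = 5.72e-04 to 0.00556). Its other kept probe set (1427424_at) was not above background on any fetal liver array and was at least 3.62-fold higher in marrow (adjusted p = 0.0253 in the fit of all probe sets). Galnt1 had signals of 3915, 3955 and 3400 in marrow and 2661, 2558 and 2712 in fetal liver, which did not overlap (-0.50 ± 0.18, adjusted p = 0.119). Galnt4 differed by -0.97 ± 0.37 (adjusted p = 0.149; -0.64 without fetal liver replicate 2). Galnt7, which prefers peptides that already carry GalNAc, was the 1 starter without overlap and higher in fetal liver, with 1314, 2243 and 2274 against 2354, 2815 and 3317 (0.57, adjusted p = 0.226). Below the filter, Galnt3 was above background on 2 marrow arrays and 0 fetal liver arrays and was at least 1.64-fold higher in marrow, with no test. For that bound each fetal liver array counted at its highest control, or at the gene where the gene was brighter.

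Of 3 tested enzymes that branch O-glycans and lactosamine chains 1 fell and 0 rose. Gcnt2 (1451733_at), the I-branching enzyme that turns linear lactosamine chains into branched ones, had signals of 1539, 3069 and 1311 in marrow and 505, 151 and 270 in fetal liver. Marrow replicate 2 was the highest array, and the groups were separate. The gene fell by 2.73 ± 0.46 (log2, SE; adjusted p = 0.00622), and the call held in all 16 alternatives (adjusted p = 0.00365 to 0.0382). Its other 4 kept probe sets differed by -0.87 to -2.80, and none was past the threshold (adjusted p = 0.0625 to 0.531 in the fit of all probe sets). Gcnt1, the core 2 enzyme of blood cells, had signals of 2046, 2259 and 2075 in marrow and 2359, 3448 and 2758 in fetal liver, without overlap (0.41 ± 0.21, adjusted p = 0.281; 0.26 without fetal liver replicate 2). Gcnt7 differed by -1.12 ± 0.79 (adjusted p = 0.452; -0.37 without fetal liver replicate 2).

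**Figure D3:**
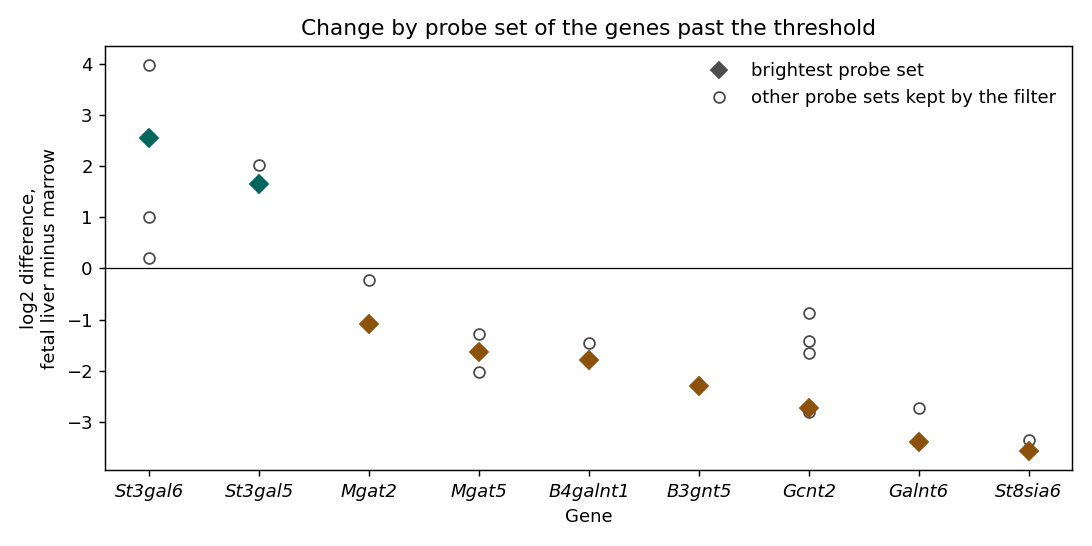
Log2 difference between fetal liver and marrow for the brightest probe set (diamonds) and every other probe set kept by the filter (circles) of the 9 members past the threshold. All 14 further probe sets lie on the same side of 0 as the brightest one, against 39 of 56 over all tested members (17 on the opposite side), and the circles of Galnt6 and St8sia6 are not above background in fetal liver.

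No call was made among galactosyltransferases, which add galactose to GlcNAc and other sugars: of 10 tested 0 rose and 0 fell (1 at an unadjusted p under 0.05), and the arrays of the tissues overlapped for all 10. Their median was 0.14, or 0.39 under median centring, -0.07 without fetal liver replicate 1 and -0.07 with probe sets averaged. B4galt1, the main galactosyltransferase of N-glycans, had signals of 993, 863 and 1258 in marrow against 773, 1098 and 1360 in fetal liver (0.03 ± 0.29, adjusted p = 0.968; -0.15 to 0.25 with an array left out). The changes of the 10 ran from -2.33 for B4galt6 to 0.98 for B3galt4. B4galt4 differed by -1.30 ± 0.61 (adjusted p = 0.243; -0.86 without marrow replicate 3). B3galt5, which makes type 1 chains, spread widely within both tissues: 174, 7.44 and 311 in marrow against 4.23, 95.9 and 18.4 in fetal liver (-1.75, adjusted p = 0.466). The gene's other kept probe sets went the opposite way, by 0.59 and 0.32 (adjusted p = 0.652 and 0.833 in the fit of all probe sets). So did another below the filter, which was at least 1.43-fold higher in fetal liver, with no test. Below the filter, B4galt2 had signals of 6.66, 37.7 and 7.32 in marrow and 41.0, 59.5 and 49.8 in fetal liver, above background on 1 and 3 arrays.

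Among enzymes that extend chains with β1,3-linked GlcNAc, B3gnt5 was the 1 of 7 that fell, and 0 rose. B3gnt7, which acts on keratan sulphate chains, had signals of 49.0, 13.6 and 45.3 in marrow and 80.0, 124 and 160 in fetal liver, without overlap (1.79 ± 0.62, adjusted p = 0.110). B3gnt4, which extends lactosamine chains, had 26.0, 25.8 and 46.9 against 68.6, 59.5 and 56.8, also without overlap (0.90 ± 0.55, adjusted p = 0.374). B3gnt2, the main lactosamine extender, had 3771, 7085 and 3488 against 5144, 3299 and 2719 with overlap (-0.34, adjusted p = 0.575). B3gnt8, which extends chains on branched N-glycans, went the other way: its signals were 57.3, 41.5 and 34.1 in marrow and 14.4, 6.19 and 15.0 in fetal liver, where no array was above background. It fell below the filter and was at least 1.41-fold higher in marrow, with no test.

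Of 3 GalNAc transferases tested beside these, B4galnt1 fell. B4galnt2, which makes the Sd(a) antigen, had signals of 287, 460 and 64.2 in marrow and 3.07, 26.5 and 51.7 in fetal liver, with 1 fetal liver array above background. The groups did not overlap, though marrow replicate 3 lay close to the fetal liver values. The change of -3.30 ± 0.93 was not past the threshold (adjusted p = 0.0563), and was with an offset of 16 (0.0452), with signals floored at the bacterial controls (0.0474) and without marrow replicate 3 (-4.11, adjusted p = 0.0322). B3galnt2, an enzyme of O-mannosyl glycans, differed by 0.33 ± 0.24 (adjusted p = 0.460).

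Fucosyltransferases gave 0 genes that rose and 0 that fell among 6 tested (1 at an unadjusted p under 0.05), and their median was -0.29, with 0.12 without marrow replicate 1, 0.008 without fetal liver replicate 1, -0.72 without marrow replicate 2, 0.04 with the filter at the 60th percentile and -0.04 under median centring. Fut8, the core fucosyltransferase of N-glycans, had signals of 907, 639 and 1092 in marrow and 1772, 1114 and 1277 in fetal liver. The lowest fetal liver array lay just above the highest marrow array (0.66 ± 0.29, adjusted p = 0.209). Fut7, which completes sialyl Lewis x, had signals of 119, 92.9 and 32.9 in marrow against 6.62, 43.7 and 33.8 in fetal liver (-1.57 ± 0.77, adjusted p = 0.259; -0.86 without fetal liver replicate 1). Fut4, which also fucosylates lactosamine chains, had signals of 398, 53.8 and 369 in marrow against 257, 152 and 297 in fetal liver (0.17 ± 0.71, adjusted p = 0.926; -0.75 without marrow replicate 2 and -0.02 without fetal liver replicate 3). Fut11 differed by -0.49 ± 0.33 (adjusted p = 0.433).

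Of the 25 members below the filter, 11 were not above background on any array, among them Fut1, Fut9, Gcnt3, Galnt13, Galnt14, St8sia1 and St6gal2, and 14 were above it on at least 1 array. Of the 60 members tested, 43 were above background on all 6 arrays. Within a tissue the median SD of the members' log2 signal was 0.56 in marrow and 0.38 in fetal liver, against 0.43 and 0.33 over all genes tested. On marrow replicate 2, 9 of the 60 lay more than 2-fold below both other marrow arrays, against 6.60% of all genes. The corresponding counts were 4 and 6 on marrow replicates 1 and 3, against 5.67% and 3.96% of all genes. On fetal liver replicates 1, 2 and 3 they were 7, 2 and 4, against 6.41%, 2.54% and 2.56%.

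Genes that supply sugar donors were counted in the same way. Of 23 tested genes of donor synthesis 1 rose and 0 fell (median -0.02), and of 10 Golgi donor transporters 0 rose and 0 fell (2 at an unadjusted p under 0.05, median -0.26), against the background shares of 3.01% and 4.76% given above. The gene that rose was Gmppb, a subunit of the enzyme that makes GDP-mannose, with signals of 463, 192 and 500 in marrow against 1443, 882 and 1006 in fetal liver (1.61 ± 0.40, adjusted p = 0.0381). The call was lost without marrow replicate 2 (0.0585) and without each of fetal liver replicates 1, 2 and 3 (0.123, 0.0862 and 0.113). Cmas, which activates sialic acid for all sialyltransferases, had signals of 9116, 9382 and 9819 in marrow against 9152, 9088 and 9277 in fetal liver (adjusted p = 0.909), and Slc35a1, which carries that donor into the Golgi, 3454, 3298 and 3093 against 2594, 2892 and 3635 (adjusted p = 0.772). Slc35c2 was not past the threshold (-1.11 ± 0.33, adjusted p = 0.0706; 0.0321 without marrow replicate 1), and neither was Slc35a5 (-0.91 ± 0.37, adjusted p = 0.166; -1.87 and 0.027 without the _s_at and _x_at probe sets, which can cross-hybridise).

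The steps before branching included 2 more genes that fell, of 10 N-glycan trimming genes tested (0 rose, median -0.22). Of all genes 4.76% fell. Man1a, a Golgi α-mannosidase that trims high-mannose chains before Mgat1 acts, had signals of 2083, 2865 and 3311 in marrow and 512, 741 and 1053 in fetal liver. It fell by 1.87 ± 0.30 (log2, SE; adjusted p = 0.00496), and the call held in all 16 alternatives (adjusted p = 0.00121 to 0.0340). Man2a2, the mannosidase that acts between Mgat1 and Mgat2, had 2024, 2874 and 1936 against 1288, 1025 and 1229 (-0.93 ± 0.24, adjusted p = 0.0402). It was not past the threshold with any 1 of the 6 arrays left out (adjusted p = 0.0520 to 0.164), and with its probe sets averaged the change was -0.09 (adjusted p = 0.914). For mucin-type O-glycans, the core 1 synthase C1galt1 had mean signals of 10341 ± 932 (SD, 3 arrays) in marrow against 7370 ± 531 in fetal liver (-0.49 ± 0.15, adjusted p = 0.0847), and its chaperone C1galt1c1 differed by -0.60 ± 0.29 (adjusted p = 0.251; -0.32 without marrow replicate 3).

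Of 13 tested genes that degrade glycans 2 fell and 0 rose (median -0.24), against 4.76% and 3.01% of all genes. Hexa, a lysosomal hexosaminidase subunit, had signals of 8151, 8209 and 9371 in marrow against 5134, 4353 and 4779 in fetal liver (-0.85 ± 0.16, adjusted p = 0.0101), a call lost without fetal liver replicates 2 and 3 (0.0630 and 0.0534). Glb1l, a relative of the lysosomal β-galactosidase, had 3119, 3738 and 3610 against 1431, 1360 and 1422 (-1.31 ± 0.19, adjusted p = 0.00287).

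Among 14 glycoproteins that carry such chains on platelets and leukocytes 1 rose and 2 fell (median -0.39). Of all genes 3.01% rose and 4.76% fell. Podxl, the sialomucin podocalyxin, had signals of 236, 92.2 and 204 in marrow and 1517, 2727 and 1907 in fetal liver, and rose by 3.57 ± 0.41 (adjusted p = 6.50e-04). Its relative Cd34 had 635, 622 and 1092 against 120, 240 and 186 and fell by 2.09 ± 0.40 (adjusted p = 0.0108). Selplg, the P-selectin ligand PSGL-1, had 443, 260 and 764 against 144, 137 and 96.2 (-1.82 ± 0.47, adjusted p = 0.0418), and was not past the threshold without marrow replicates 1 and 3 or any fetal liver replicate (adjusted p = 0.0773 to 0.156). Podxl and Cd34 kept their calls in all 16 alternatives.

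Receptors that bind glycans moved both ways, with 2 risen and 2 fallen of 12 tested (median -0.38), against 3.01% and 4.76% of all genes. P-selectin, encoded by Selp, had signals of 325, 793 and 1089 in marrow and 71.4, 40.6 and 40.5 in fetal liver and fell by 3.66 ± 0.53 (adjusted p = 0.00273). Lgals3, which encodes galectin-3, had 209, 131 and 1009 against 24.3, 6.00 and 20.6 and was at least 9.35-fold lower in fetal liver, where no array was above background (adjusted p = 0.0111). Clec1b, the platelet podoplanin receptor CLEC-2, had 726, 644 and 924 against 2326, 1373 and 2114 (1.32 ± 0.28, adjusted p = 0.0177), a call lost without fetal liver replicates 1 and 3 (0.0706 and 0.0957). Asgr2, a subunit of the hepatocyte receptor for galactose-ended glycoproteins, had 19.1, 28.5 and 27.5 against 119, 71.6 and 158 (2.04 ± 0.55, adjusted p = 0.0498), and was not past the threshold with any 1 array left out (adjusted p = 0.0727 to 0.204). Of the hepatocyte markers Apoa1 moved with Asgr2, with a mean signal of 217 in fetal liver and 44.7 in marrow. Alb, Afp and Apoa2 differed by 2.05, 1.81 and 1.69 and did not pass (adjusted p = 0.170, 0.365 and 0.106). The tissues' arrays did not overlap for Alb and Apoa2. Ttr differed by -0.21, and Fgb was not above background on any array.

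**Figure D4:**
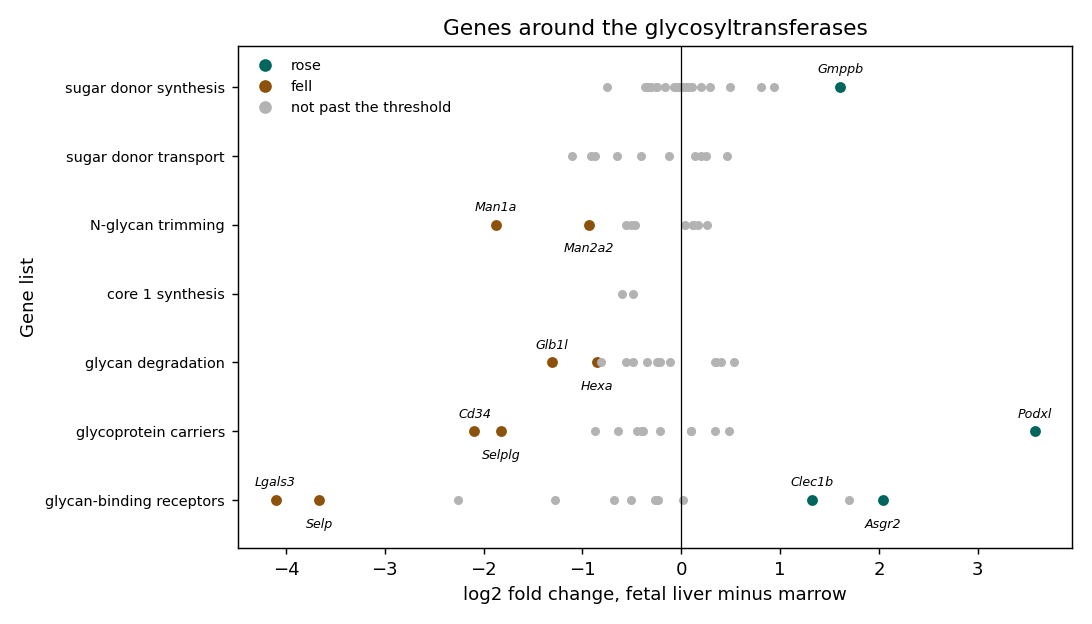
Log2 fold change, fetal liver minus marrow, of each tested gene of 7 lists around the glycosyltransferases (points), with the genes past the threshold coloured and named. Podxl lies at 3.57 and Selp at -3.66, and the donor transport and core 1 lists hold none. Lgals3 and Siglece are drawn at their fitted changes of -4.10 and -2.26. No fetal liver array was above background for either, and their bounds were at least 9.35-fold and 2.59-fold higher in marrow.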

How the data were processed

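Gene expression of 6 sorted MkP samples was measured on 1-colour Affymetrix arrays. The authors deposited probe set signals (intensity, linear scale) made with MAS5, per the submitters' processing notes; its version is not given in the sources used here, and no scaling target is. The mean after trimming 2% at each end was 500 on each array. Of 45101 probe sets, 64 were controls. Signals were taken as log2(signal + 2.87), 2.87 being the 10th percentile of all signals, without further scaling. The offset makes changes of the dimmest signals smaller. It lies below the bacterial controls (22.2 to 35.1), so signals under the controls still differ on this scale. Changes that rest on such signals can therefore be too large or too small. Probe sets were named from the platform annotation, and each gene was represented by the kept probe set with the highest mean. Tissues were compared with limma 3.58.1 in R 4.3.3 (lmFit, eBayes with an intensity trend). Other probe sets were tested in 1 fit of all kept probe sets. Scripts were tested on simulated data. The number of arrays limits the precision.

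Members, lists and tests were chosen with earlier results of these data known. The text names each member past the threshold, up to 3 members of smallest p in families with at most 1, members above background on all arrays of one tissue and none of the other, 9 blood-related members, and from each list up to 4 genes past the threshold or else 2 of smallest p. St3gal2, St3gal3, Galnt3, Galnt7, B3galt5, B4galt2, B4galt5, St8sia1, B3gnt2, Mgat4a, St8sia4, the St6galnac genes, Siglece, Cmas and Slc35a1 lie outside that rule. They were chosen after their values were seen. Alternatives were another offset, scaling, filter, probe set rule or floor, no variance trend, a replicate block and leaving out each array. Deviations of same-numbered arrays correlated at 0.15, -0.02 and 0.08, and those of the other pairs at -0.15 to 0.10. Whether replicate numbers pair the samples cannot be told from so few arrays. RefSeq promoter windows are from GRCm38.p6. Figures were drawn with matplotlib 3.10.9.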

Additional observations from a re-analysis of the deposited data

How the results depend on the processing

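Results were recomputed under up to 16 alternatives: of the 46 named genes tested 34 had a value in all 16, 11 in 15 and 1 in 14, since a gene that the filter removed has no value. The risen members numbered 1 without the variance trend, 0 with the mean of probe sets and 1 to 2 with an array left out. The fallen members numbered 4 to 8 with an array left out and 5 to 8 under the other alternatives. The members' median was -0.083 under quantile normalization, -0.031 under median centring, -0.056 with no filter (85 members), -0.089 with the filter at the 60th percentile (37 members) and -0.26 to -0.14 with an array left out. The changes of B4galt1, Fut4 (also -0.02 without fetal liver replicate 3) and Fut11, none past the threshold, ranged from -0.15 to 0.25, -0.75 to 0.66 and -0.68 to 0.013 with an array left out.

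Genes past the threshold in the lists around the members were also recounted. Donor synthesis had 0 without the variance trend (0 to 1 with an array left out), donor transport 1 without probe sets prone to cross-hybridisation and 1 with the replicate block (0 to 1), and core 1 synthesis 1 under quantile normalization and 1 with the replicate block. N-glycan trimming had 1 under median centring, with no filter, without the variance trend, with the mean of probe sets and with any array left out, and glycan degradation 1 without the variance trend (1 to 2). Glycoprotein carriers had 5 with the replicate block, and glycan-binding receptors 2 with the filter at the 60th percentile (2 to 4). The cause of these shifts was not tested. With the replicate block, 2 members rose and 7 fell and 1210 of all genes passed, against 903. Whether the replicate numbers pair the samples cannot be told.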
